A study of Homo sapiens with 4 samples.

Results

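ZC3H14, PABPN1, PABPC1 and PABPC4 encode proteins that bind the poly(A) tail, and their own 3′ ends were followed in 2 esophageal squamous cell carcinoma (ESCC) lines given l-lactate. The members were taken as every PAS cluster (PAC, a group of neighbouring poly(A) sites) whose dominant site, the position with the most tags, lay in the same-strand GENCODE 44 span of 1 of these 4 genes. This gave 4 genes of 11251 with a PAC and 11 PACs of 17627. ZC3H14 was included because the share of its distal PAC rose with l-lactate in both lines, so its l-lactate values are given as a description without a test.

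PAS-seq, which captures polyadenylated RNA and counts tags at the position where each RNA was cleaved, was done on 4 libraries. KYSE30 and TE-1, both established ESCC lines, were each measured once after exposure to l-lactate, at 20 mM over 24 h by the account of the study, and once as a control given PBS. The labels of the control libraries name the lines KYSE32 and TE-3, whereas their titles give K30 and TE1, and the titles were followed here. There was 1 library per line and treatment, and how many cultures it came from is not given in the sources used here, so no spread between replicates exists within a line.

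The poly(A) tail is bound by different proteins in the nucleus and in the cytoplasm. PABPN1 coats the growing tail in the nucleus and stimulates poly(A) polymerase, and ZC3H14, a nuclear zinc finger protein, restrains tail length. PABPC1 and PABPC4 cover the tail in the cytoplasm, where they contact the translation initiation factor eIF4G and govern access of deadenylases to the tail.

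Cleavage positions are set by sequence just upstream of the cleavage site, above all the hexamer AATAAA, so the 30 nt ending at each dominant site of the members are shown first. They were read from GRCh38, 5′ to 3′ on the strand of the gene, with capitals marking AATAAA or, where the 50 nt upstream held neither AATAAA nor ATTAAA, the variant AATATA. Sites of PABPC1 are described without sequence. The first pair are the alternative dominant sites of the proximal ZC3H14 PAC and the third is its distal site, the pair of PACs between which usage differed.
ZC3H14 proximal, chr14:88611833-88611862, plus strand: atctttgaaacttggAATATAttgctttca
ZC3H14 proximal, chr14:88611859-88611888, plus strand: ttcataatatgaagttttattgcctatcta
ZC3H14 distal, chr14:88613480-88613509, plus strand: acaaggaaatAATAAAatactaaaatctga
PABPC4, chr1:39560812-39560841, minus strand: AATAAAgaaaaaaaatctccataaaactgc
PABPN1 in the gene, chr14:23325356-23325385, plus strand: aaaaaaaagaaaaacagaagatgaccttga
PABPN1 past the gene end, chr14:23326155-23326184, plus strand: aAATAAAaattgtttggccttttgggtgta

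The 2 ZC3H14 PACs differed in their signals. The distal site had AATAAA ending 14 nt upstream of the cleavage position. Neither dominant site of the proximal PAC had AATAAA or ATTAAA in the 50 nt upstream. The variant found there was AATATA, which ended 9 nt before the more upstream site and 35 nt before the other. Over all 13586 PACs placed in 3′ UTRs, 66.7% had AATAAA in that window, 83.5% had AATAAA or ATTAAA, and 12.1% had only a variant. The search covered the strand of the gene alone, and a variant was AGTAAA or TATAAA or CATAAA or GATAAA or AATATA or AATACA or AATAGA or ACTAAA or AAGAAA or AATGAA. A main signal at the most distal and not at the most proximal PAC was found in 469 of 2033 genes (23.1%). The 2033 were genes with 2 or more 3′ UTR PACs, each above 5 TPM in at least 1 library. The tetramer TGTA, the core of the motif bound by the cleavage factor subunit NUDT21, lay 61 and 87 nt before the dominant proximal sites. It was not found in the 100 nt before the distal site. TGTA occurred in that window in 58.1% of the 13586 PACs. These matches describe letters in a window and not binding.

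In each of the other members, the leading site that all 4 libraries listed had AATAAA. The PABPC4 site had AATAAA ending 24 nt upstream, and the PABPN1 site past the gene end had AATAAA ending 23 nt upstream. The main PABPC1 site had AATAAA 17 nt upstream. The PABPN1 site inside the gene had ATTAAA ending 33 nt upstream, just outside the printed stretch, and 10 A within the 20 genomic bases that follow it, 8 of them in a row. A run of at least 6 A in those 20 bases was seen at 0.699% of the 13586 PACs. Oligo(dT) can anneal to such runs, and whether any of the tags at this site arose in that way was not tested.

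ZC3H14 (ENSG00000100722.20) spans positions 88562970 to 88627596 on the plus strand of chromosome 14 and had 2 PACs, both in the 3′ UTR of its canonical transcript. The proximal PAC covered 27 nt and its main site lay 137 nt after the stop codon. The distal PAC was a single position 1758 nt after the stop codon, 1621 nt downstream of the proximal site. The annotated gene end lies a further 14087 nt away, and no PAC was listed in that stretch.

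The level of the proximal ZC3H14 PAC was 16.8 TPM (tags relative to the library total) in control KYSE30 and 13.9 TPM with l-lactate. In TE-1 it was 28.3 TPM in the control and 20.5 TPM with l-lactate. The proximal PAC was thus lower in the l-lactate library of each line, although in KYSE30 the 95% counting interval of the log2 ratio, -0.67 to 0.12, included 0. In TE-1 that interval was -0.74 to -0.19. The distal PAC was at 5.12 TPM in control KYSE30 and 9.62 TPM with l-lactate, a ratio of 1.88. It was at 8.27 TPM in control TE-1 and 12.04 TPM with l-lactate, a ratio of 1.46. The distal PAC was higher in both l-lactate libraries, with log2 ratios of 0.91 (counting interval 0.32 to 1.52) in KYSE30 and 0.54 (0.11 to 0.97) in TE-1. Counting intervals at 95% were computed from the tags, assume that each tag is an independent molecule, and cover counting error only. For ZC3H14, chosen on the l-lactate contrast, they are no test of the change.

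Distal usage, the share of the 3′ UTR tags of a gene in its most distal PAC, put these changes on 1 scale. For ZC3H14 it was 23.3% in control KYSE30, where 38 of 163 tags were distal (Wilson interval 17.5% to 30.4%). With l-lactate, 69 of 169 tags were distal in this line, or 40.8% (33.7% to 48.4%). It was 22.6% in control TE-1, from 86 of 380 tags (18.7% to 27.1%). The l-lactate library of TE-1 had 102 of 276 tags at the distal PAC, or 37.0% (31.5% to 42.8%). The 2 control libraries therefore lay within 1 percentage point of each other and below both l-lactate libraries. The rise was 17.5 points in KYSE30 (Newcombe interval 7.48 to 27.0) and 14.3 points in TE-1 (7.25 to 21.4). These changes chose the gene, so the intervals show counting error only and are no test of the rise.

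**Figure D1:**
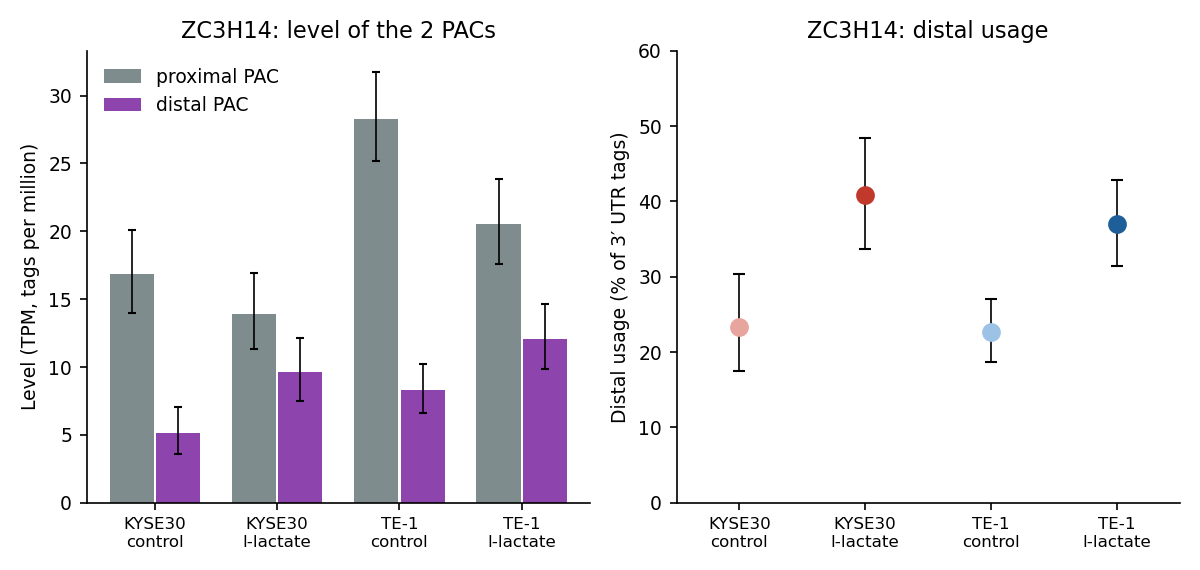
ZC3H14 in the 4 libraries. Left, level of the proximal and distal PACs in TPM (bars start at 0), and right, distal usage in percent of the 3′ UTR tags; error bars are 95% counting intervals (left) and Wilson intervals (right), with 1 library per point. The proximal PAC was the higher of the pair in every library, and distal usage was near 23% in both controls and at 37.0% and 40.8% with l-lactate.

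Over all genes with 2 or more 3′ UTR PACs above 5 TPM in a line, a rise in distal usage of at least 10 points was seen in 3.24% of 1637 genes for KYSE30 and in 6.17% of 1638 genes for TE-1, and a fall of that size in 5.8% and 5.19%. Of the 1253 genes measured in both lines, 14 (1.12%) rose by 10 points in both. ZC3H14 was the fifth when the 1253 genes were ordered by the smaller of their 2 changes. The median change over all genes was -0.55 points in KYSE30 and 0.26 points in TE-1. Since ZC3H14 was picked from this contrast, its place among these genes carries no further weight.

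The summed level of ZC3H14 changed little by comparison. It was 22.0 TPM in control KYSE30 and 23.6 TPM with l-lactate, and 36.6 TPM in control TE-1 and 32.6 TPM with l-lactate. The log2 ratio of l-lactate to control was 0.10 (counting interval -0.22 to 0.42) in KYSE30 and -0.17 (-0.39 to 0.06) in TE-1, so the change in either line was within counting error. At these depths, 163 to 380 tags per library, any ratio inside those intervals remained compatible with the counts, and spread between cultures was not covered.

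The l-lactate contrast chose ZC3H14, but the contrast between the lines did not. Its level was higher in both TE-1 libraries than in both KYSE30 libraries, by 0.58 ± 0.13 (SE) on the log2(TPM + 1) scale (limma with treatment as a term, adjusted p = 0.0022, n = 2 libraries per line). Such a difference was common, as 73.7% of the 9125 genes tested were called between the lines. Of all genes tested, 36.8% were higher in TE-1 and 36.9% were lower. Both PACs were higher in TE-1. The proximal PAC was 1.68 times its KYSE30 level in the controls and 1.47 times with l-lactate, and the distal PAC was 1.62 and 1.25 times. Distal usage averaged 32.1% in KYSE30 and 29.8% in TE-1, a difference of -2.28 ± 1.72 points (SE, limma adjusted p = 0.397). The difference did not pass the test, and 17.6% of the 1930 genes tested did. Between the 2 controls the Newcombe interval of the TE-1 minus KYSE30 difference was -8.76 to 6.67 points.

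Within the proximal ZC3H14 PAC, 27 nt wide, the tags were spread over several positions. The dominant sites of the libraries lay 26 nt apart. The dominant site was at 88611888 in 3 libraries and at 88611862 in the l-lactate library of KYSE30. The dominant position held 32.8% to 37.6% of the tags of the PAC in the 4 libraries. In KYSE30 the leading position held 35% with l-lactate (Wilson interval 26.4% to 44.7%) and 37.6% in the control (29.6% to 46.3%). The shares of the positions that did not lead were not analysed here.

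PABPC1, the major cytoplasmic poly(A)-binding protein, was by far the most abundant member. The gene (ENSG00000070756.17) spans positions 100685816 to 100722809 on the minus strand of chromosome 8. Its level was 3047 TPM in control KYSE30, 2964 TPM with l-lactate, 1738 TPM in control TE-1 and 1629 TPM with l-lactate. Among the genes listed in each library it stood at rank 36 and 37 in KYSE30 and at rank 74 and 78 in TE-1. The level was lower in TE-1 (log2 difference -0.84 ± 0.06 SE, limma adjusted p = 2.4e-07), as was called for 36.9% of the 9125 genes tested. In bulk RNA a lower level per cell and fewer cells that express a gene cannot be told apart.

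The l-lactate libraries lay slightly below the controls for PABPC1 in both lines. The ratio was 0.973 in KYSE30 and 0.937 in TE-1, and both counting intervals of the log2 ratio, -0.07 to -0.01 and -0.13 to -0.06, lay below 0. Across the lines the difference was -0.07 ± 0.06 (SE, limma adjusted p = 0.773), which did not pass the test. In that comparison 0.0219% of the 9125 genes, 2 in number, were called, and 10.5% had an unadjusted p under 0.05.

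**Figure D2:**
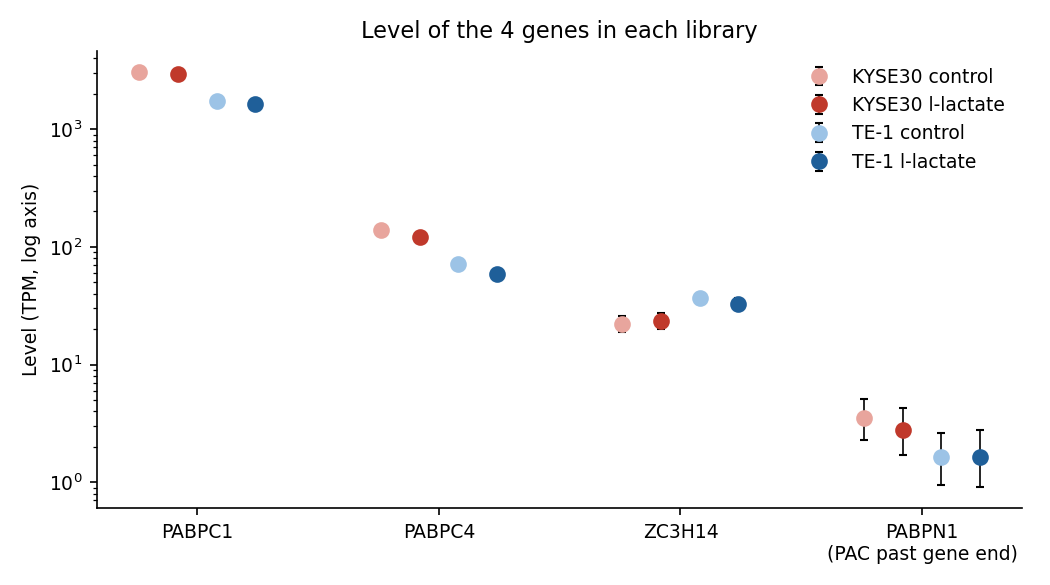
Level of the 4 genes in each library, in TPM on a log axis, with 95% counting intervals and 1 library per point. PABPN1 is shown by the PAC just past its gene end, the only PAC assigned to it here that all 4 libraries listed; PABPC1, PABPC4, ZC3H14 and PABPN1 keep this order in every library, and ZC3H14 alone sits higher in TE-1.

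Of the 7 PACs in PABPC1, 1 carried nearly all tags. Its dominant site lay 446 nt after the stop codon, at the same position in all 4 libraries, and 1 nt from the end of the canonical transcript. This PAC held 99.3% and 99.1% of the PABPC1 tags in control and l-lactate KYSE30, and 98.98% and 98.9% in the TE-1 libraries. It was 356 nt wide, yet 84.5% to 85.4% of its tags fell on the dominant position.

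The distal PABPC1 PAC, 552 nt downstream and 998 nt after the stop codon of a longer transcript, had ATTAAA ending 13 nt upstream. Its level was 11.2 TPM in control KYSE30 and 14.9 TPM with l-lactate, and 5.77 TPM in control TE-1 and 5.43 TPM with l-lactate. Distal usage was 0.368% and 0.504% in KYSE30, and 0.334% and 0.335% in TE-1, in the same order. The change with l-lactate was 0.14 points in KYSE30 (Newcombe interval 0.01 to 0.26) and 0.001 points in TE-1 (-0.13 to 0.13). Neither line reached 10 points, and at these shares a fall of that size was not possible. Across the lines the limma difference was 0.07 ± 1.41 points (SE, adjusted p = 0.991), in a comparison in which 0% of the 1930 genes were called (0 genes, against 12.1% with an unadjusted p under 0.05). The difference between the lines was -0.10 ± 1.41 points (SE, limma adjusted p = 0.970). This SE, moderated over all genes, exceeds the distal usage of PABPC1 in every library. Neither test could therefore tell whether that usage changed.

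The third PAC of PABPC1 that all 4 libraries listed lay 1200 nt upstream of the main site, in the 3′ UTR of an alternative transcript, 183 nt after its stop codon. It was at 2.56 TPM in control KYSE30 and 5.16 TPM with l-lactate, and at 4.43 TPM in control TE-1 and 6.49 TPM with l-lactate. The l-lactate library was the higher in each line, with log2 ratios of 1.01 (counting interval 0.18 to 1.89) and 0.55 (-0.04 to 1.15), from 19 to 55 tags. The PAC made up 0.0840% to 0.399% of the tags of the gene.

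**Figure D3:**
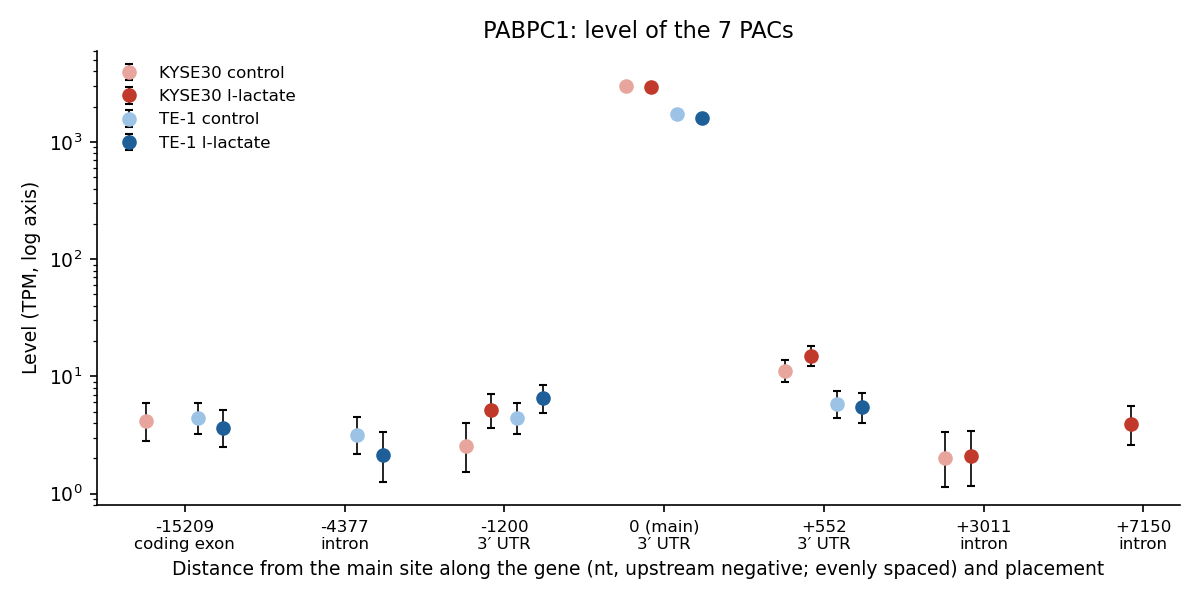
The 7 PACs of PABPC1, placed in order along the gene with their distance from the main site in nt (evenly spaced, not to scale) and their placement in the annotation. Points are levels in TPM on a log axis with 95% counting intervals, and a missing point means that the library does not list the PAC; the main PAC lies at 1611 to 3027 TPM and the other 6 at 14.9 TPM or less.

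The remaining 4 PACs of PABPC1 were each absent from the list of at least 1 library. A PAC in a coding exon, 15209 nt upstream of the main site, was at 4.17 TPM in control KYSE30, and at 4.43 and 3.66 TPM in the control and l-lactate TE-1 libraries. Intronic PACs were listed 7150 nt downstream (3.902 TPM, l-lactate KYSE30 alone), 3011 nt downstream (2.02 TPM in the control and 2.09 TPM with l-lactate, KYSE30 alone) and 4377 nt upstream (3.17 TPM in the control and 2.13 TPM with l-lactate, TE-1 alone). An unlisted PAC fell below the minimum set by the authors (3 TPM for a PAC of a single position) and need not be at 0. The single-position PACs at 3.66 to 4.43 TPM lay just above that minimum. PABPC1 has near-identical processed copies elsewhere in the genome, and how reads that match several places were counted is not given in the sources used here, so its values may include or lack such reads.

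PABPC4, a second cytoplasmic poly(A)-binding protein, had a single PAC and so no measure of distal usage. The gene (ENSG00000090621.15) spans positions 39560709 to 39576790 on the minus strand of chromosome 1, and the dominant site lay in the 3′ UTR of a transcript that runs past the canonical one, 324 nt after the stop codon. Its level was 138 TPM in control KYSE30 and 122 TPM with l-lactate, and 72.2 TPM in control TE-1 and 59.2 TPM with l-lactate. Both KYSE30 libraries were well above both TE-1 libraries, with a log2 difference of -0.98 ± 0.08 (SE, TE-1 minus KYSE30, limma adjusted p = 1.3e-06). A lower level in TE-1 was called for 36.9% of the 9125 genes tested. PABPC4 thus differed between the lines in the same direction as PABPC1 and in the opposite direction to ZC3H14.

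PABPC4 was lower with l-lactate in both lines. The ratio to the control was 0.885 in KYSE30 (counting interval of the log2 ratio -0.31 to -0.04) and 0.820 in TE-1 (-0.45 to -0.12). Across the lines the log2 difference was -0.23 ± 0.08 (SE), with an unadjusted limma p of 0.0214 and an adjusted p of 0.405, so it did not pass the test. The dominant site was the same in all 4 libraries and held 32.7% to 35.9% of the tags of a PAC 13 nt wide.

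PABPN1, the nuclear poly(A)-binding protein, was barely captured. The gene (ENSG00000100836.11) spans positions 23321457 to 23326163 on the plus strand of chromosome 14, and the single PAC inside that span lay 99 nt after the stop codon, at the site followed by the run of A described above. It was listed at 3.902 TPM (28 tags) in l-lactate KYSE30 and at 3.46 TPM (36 tags) in control TE-1, and not in the other 2 libraries. All its tags were at 1 position, so 3 TPM was the minimum for a listing, and values close to that minimum do not order the libraries.

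A further PAC lay 21 nt past the annotated end of PABPN1, 898 nt after the stop codon, and so outside the rule. It was at 3.501 TPM in control KYSE30 and 2.79 TPM with l-lactate, and at 1.64 TPM in control TE-1 and 1.65 TPM with l-lactate, from 14 to 26 tags. Both KYSE30 libraries were above both TE-1 libraries, but the counting intervals overlapped between the lines as well as within them. The mean level of PABPN1 over the 4 libraries was below the 5 TPM needed for the test, so 3 of the 4 members were tested by level. The readthrough gene BCL2L2-PABPN1 shares this 3′ end, and its tags cannot be told apart from those of PABPN1.

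PABPC1 was thus first in every library, followed by PABPC4, ZC3H14 and PABPN1, and neighbours in this order had counting intervals that did not overlap in any library. Of the 3 members tested between the lines, 1 was higher in TE-1 and 2 were lower. Over all 9125 genes 36.8% were higher and 36.9% were lower, so calls in both directions were common. Of the 2 members with distal usage, ZC3H14, which was chosen for its rise, changed by at least 10 points and PABPC1 did not. Over all genes measured, rises of that size were seen in 3.24% in KYSE30 and 6.17% in TE-1, and falls in 5.8% and 5.19%. PABPC1 had at most 0.504% distal usage, so it could not have fallen by 10 points.

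A list of 34 genes that act with these proteins gave the setting of the members. Of these, 30 had a PAC within their annotated span and 27 were abundant enough to test. The other 4 (PABPC3, PABPC4L, PABPC5 and PABPN1L, all relatives of the members) had none there. Between the lines, 12 were higher in TE-1, 10 were lower and 5 did not pass the test, with a median log2 difference of 0.11. Those called, 12 and 10 of 27, stood beside 36.8% and 36.9% of all genes. In the l-lactate contrast limma called none of the 27, where 0.0219% of all genes were called.

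**Figure D4:**
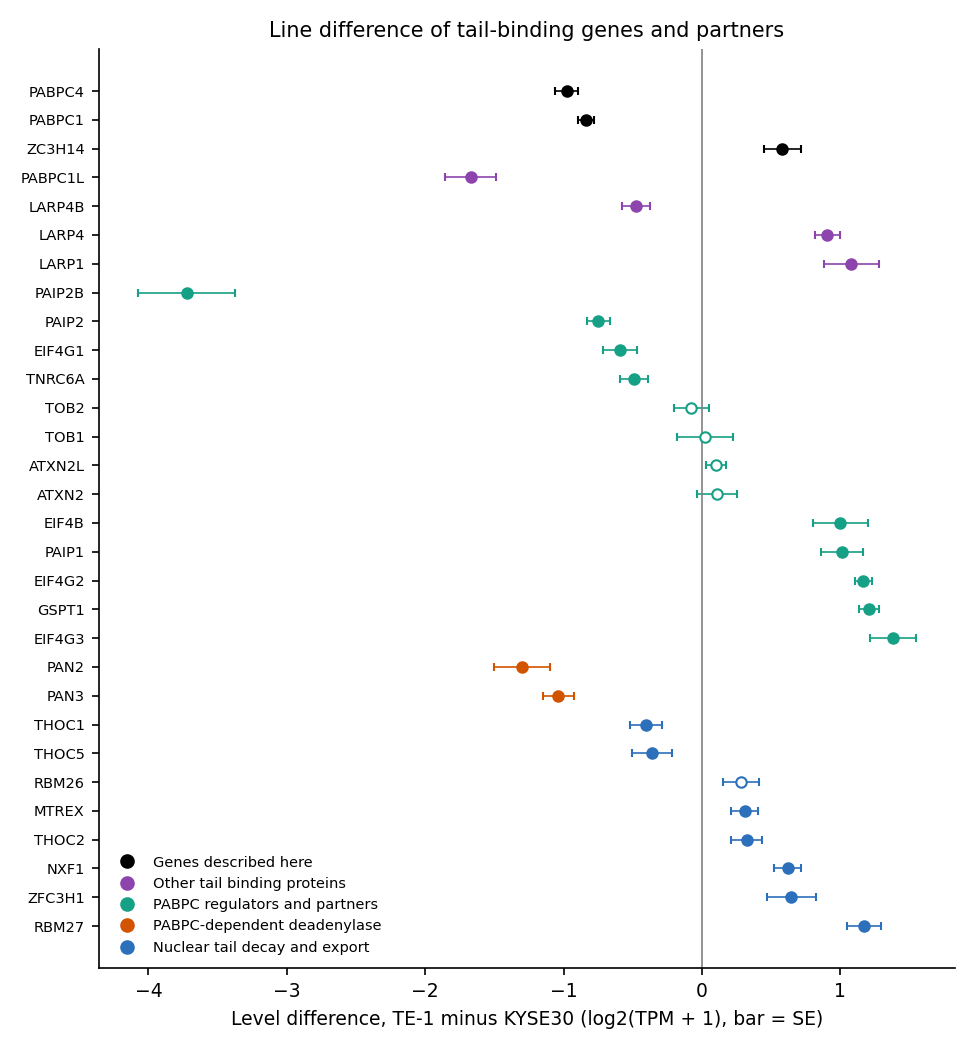
Level difference between the lines for the 3 tested members and 27 partner genes, as TE-1 minus KYSE30 on the log2(TPM + 1) scale with the SE from limma (n = 2 libraries per line). Filled points passed an adjusted p of 0.05 and open points did not; colours give the roles. PABPC1 and PABPC4 lie near -0.84 and -0.98, ZC3H14 at 0.58, and both PAN2 and PAN3 lie below -1.

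Among other tail-binding proteins, LARP1 and LARP4 were higher in TE-1 and PABPC1L and LARP4B were lower. PABPC1L, a relative of PABPC1 best known from oocytes, was at 16.4 TPM in control KYSE30 and 17.8 TPM with l-lactate, and at 4.33 and 5.08 TPM in TE-1. Its log2 difference was -1.67 ± 0.19 (SE, limma adjusted p = 1.0e-05).

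PAN2 and PAN3, the deadenylase that PABPC recruits to the tail, were both lower in TE-1. PAN2, the catalytic subunit, was at 16.2 TPM in control KYSE30 and 11.7 TPM with l-lactate, and at 4.91 and 5.08 TPM in TE-1. Its log2 difference was -1.30 ± 0.20 and that of PAN3 was -1.04 ± 0.11 (SE, limma adjusted p = 0.00015 and 8.3e-06).

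Of 13 tested regulators and partners of PABPC, 5 were higher in TE-1, 4 were lower and 4 did not pass the test. GSPT1, the translation termination factor eRF3a, which binds PABPC1, was at 138 TPM in control KYSE30 and 152 TPM with l-lactate, and at 332 and 340 TPM in TE-1, a log2 difference of 1.21 ± 0.07 (SE, limma adjusted p = 5.0e-08). EIF4G3, an eIF4G scaffold, was at 7.27 and 9.90 TPM in KYSE30 and at 18.8 and 29.9 TPM in TE-1, control first in each. Its log2 difference was 1.38 ± 0.17 (SE, limma adjusted p = 2.1e-05). With 3′ UTR PACs alone EIF4G3 fell below the mean of 5 TPM needed for the test. Most of its level thus came from PACs placed outside the 3′ UTR. PAIP2B, which displaces PABPC from the tail, was the most unequal. It was at 21.4 and 23.97 TPM in KYSE30, at 2.21 TPM in control TE-1 and not listed in l-lactate TE-1, and its fitted log2 difference of -3.72 ± 0.35 (SE, limma adjusted p = 2.7e-06) depends on the pseudocount. Among the 27 partners abundant enough to test, PAIP2B, EIF4G3 and EIF4B were the 3 whose level differed 1.5-fold between l-lactate and control in at least 1 line, on the log2(TPM + 1) scale. None of the 27 reached that fold in the same direction in both lines. EIF4B was higher with l-lactate in both, by 0.50 log2 units in KYSE30 and 0.93 in TE-1, as was EIF4G3 (0.40 and 0.64). EIF4B was low, at 4.85 and 7.25 TPM in KYSE30 and 9.04 and 18.2 TPM in TE-1, control first. Across the lines neither EIF4B nor EIF4G3 passed the l-lactate test (limma adjusted p = 0.290 and 0.350). PAIP2B moved in opposite directions (0.16 and -1.68). In KYSE30 1.95% of the 9125 genes were higher and 2.02% lower by that fold, and in TE-1 2.6% and 1.53%.

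Of the 8 nuclear partners in tail decay and RNA export, 5 were higher in TE-1, 2 were lower and RBM26 did not pass the test. RBM27, which acts with the exosome targeting complex around ZFC3H1, was at 20.7 TPM in control KYSE30 and 22.0 TPM with l-lactate, and at 49.6 and 49.1 TPM in TE-1, a log2 difference of 1.17 ± 0.12 (SE, limma adjusted p = 5.4e-06).

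Distal usage could be measured for 8 partners, and 1 of them, RBM27, changed by 10 points in a line. Over all genes, rises of that size were seen in 3.24% in KYSE30 and 6.17% in TE-1, and falls in 5.8% and 5.19%, so 1 of 8 partners is near what all genes showed. Its distal usage was 35.7% in control KYSE30 and 41.8% with l-lactate, and 43.0% in control TE-1 and 53.8% with l-lactate, a rise of 6.06 and 10.8 points. The limma difference across the lines was 8.44 ± 2.04 points (SE, adjusted p = 0.392) and did not pass the test. The other 7 partners, among them LARP4, GSPT1 and PAIP2, changed by at most 7.90 points in either line. The 2 lines moved in opposite directions for LARP4B, GSPT1, MTREX and RBM26.

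**Figure D5:**
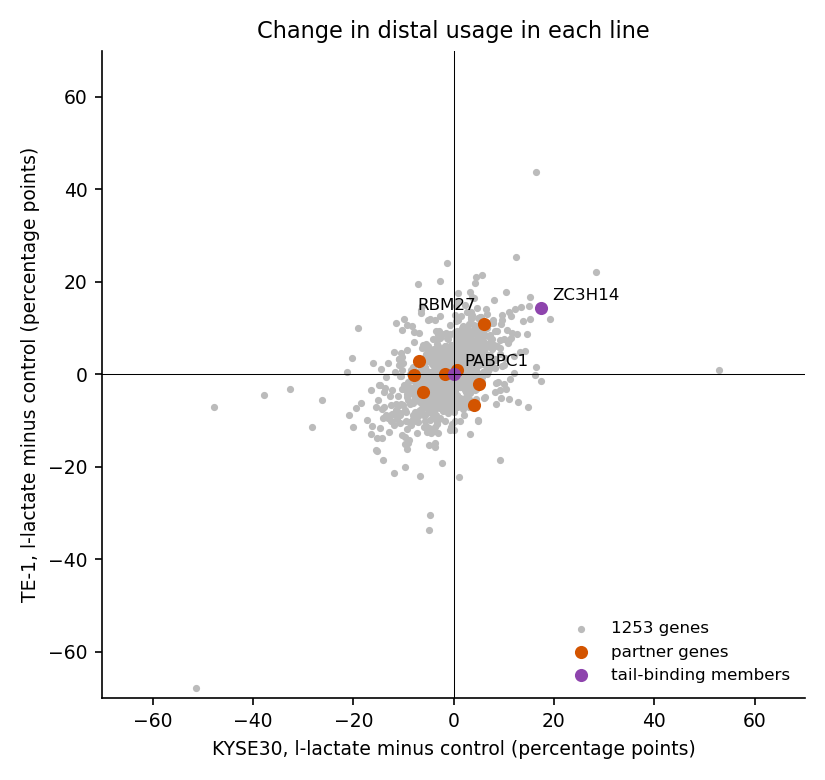
Change in distal usage with l-lactate in KYSE30 (x axis) and TE-1 (y axis), in percentage points, for the 1253 genes measured in both lines (grey), the partner genes (orange) and the members ZC3H14 and PABPC1 (purple). ZC3H14 lies at 17.5 and 14.3 points, RBM27 at 6.06 and 10.8, and PABPC1 at 0.14 and 0.001.

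Genes most like each member were sought by the distance between level profiles over the 4 libraries, each centred on its own mean of log2(TPM + 1), among 5808 other genes with a mean of at least 20 TPM. With only 4 libraries this likeness mostly restates the line difference. The nearest to ZC3H14 were MPI, CCNQ and ATP5MJ (distance 0.04 to 0.05), to PABPC1 were NDFIP2, SMCHD1 and HDAC1 (0.01 to 0.03), and to PABPC4 were FAM89B, SMARCD2 and EIF2B5 (0.03 to 0.05). PABPN1 is left out, as its profile rests on 2 unlisted values and 2 values near the listing minimum. By distal usage, the nearest to ZC3H14 among 1647 genes was COX16, at 11.3 points over the 4 libraries, with 30.8% and 37.6% in KYSE30 and 30.4% and 36.9% in TE-1, control first.

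The libraries held 7174991 to 10393799 tags and listed 14810 to 15048 PACs each. Of 11 markers of squamous epithelium, 6 (KRT6A, KRT17, PERP, CDH1, EPCAM and DSP) had a PAC within their annotated span in at least 1 library. KRT5, KRT14, TP63, SFN and DSG3 had none there, and a PAC past a gene end was not counted. The summed level of the 6 was 1306 TPM in control KYSE30 and 1426 TPM with l-lactate. In TE-1 it was 633 TPM in the control and 674 TPM with l-lactate. It was thus lower in TE-1, as were PABPC1 and PABPC4. With l-lactate it was higher in each line, whereas PABPC1 and PABPC4 were lower. Its part in the differences between the lines was not tested. Fibroblast markers summed to 0 TPM in KYSE30 and to 8.50 and 12.5 TPM in TE-1, immune markers (CD68 alone) to 3.48 to 15.2 TPM, and endothelial markers (CDH5 alone) to 11.2 and 16.2 TPM in KYSE30 and 0 in TE-1.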

How the data were processed

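The authors aligned the reads to GRCh38 with HISAT2, called sites with CAGEr, dropped sites under 1 TPM, grouped sites within 24 nt and dropped single-site PACs under 3 TPM. They then joined PACs detected across the samples above 5 TPM that lay within 500 nt of each other. Sites that close can thus share 1 PAC and do not enter distal usage separately. The deposited TPM are tags scaled to the library total (RPM), with no length correction. Every value was a whole multiple, within rounding, of a single step per library, which gave the tags. Members and gene lists were chosen with earlier results of these data known. Levels were TPM summed over the PACs of a gene, an unlisted PAC counting as 0. Lines and treatments were compared with limma 3.58.1 (R 4.3.3) on log2(TPM + 1) over genes with a mean of at least 5 TPM, and on distal usage of genes with 2 or more 3′ UTR PACs above 5 TPM in a library. The other factor was a term of the fit, which left 1 residual degree of freedom, moderated over genes. P-values were adjusted by Benjamini-Hochberg over all genes and measure the spread among 4 libraries. Partners named were those past 10 points or 1.5-fold in both lines and the 3 highest and 3 lowest line differences past the threshold, and likeness used the 3 nearest genes. Other partners were named to spell out a count, after their values were seen. The fit was also run on simulated data with a spread fixed in advance, which need not match these libraries, and no result here rests on it.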

Additional observations from a re-analysis of the deposited data

Results flagged for a closer look

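The summed level of PABPN1, counting its PAC inside the gene and the PAC past the gene end, was 3.501 TPM in control KYSE30 and 6.69 TPM with l-lactate, and 5.10 TPM in control TE-1 and 1.65 TPM with l-lactate. The log2 ratio of l-lactate to control was thus 0.93 in KYSE30 and -1.63 in TE-1, opposite in sign and 2.56 apart, and it was singled out for this. The difference was not tested, as there was 1 library per line and treatment. The PAC inside the gene, listed in 1 library of each line at 3.46 or 3.902 TPM, against a minimum of 3 TPM, set the size and the direction of both ratios, since without it they were -0.33 and 0.02, each with a counting interval that included 0.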

How the results depend on the processing

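All alternatives tried for the line and l-lactate differences of ZC3H14, PABPC1 and PABPC4 kept direction and side of the threshold, except the distal usage of PABPC1 with l-lactate, which was 0.07 points but -1.03 nt as a TPM-weighted mean distance. The fits without a replicate block (line or treatment as a term) changed no call of a member. Counts over all genes moved more. Genes called by level with l-lactate, 2 as reported, were 4 with 3′ UTR PACs only, 10 with a mean of at least 10 TPM, 172 with a pseudocount of 5, 183 with unlisted PACs at 1 TPM, and 0 with no filter, a pseudocount of 0.1, size factors or no replicate block. Genes called by distal usage between the lines, 339 as reported, were 0 with a minimum of 1 TPM and 4 by mean distance. Rises in distal usage, 53 in KYSE30 and 101 in TE-1 cells, were 185 and 319 at 5 points, 3 and 12 at 20 points, 151 and 199 with a minimum of 1 TPM and 13 and 50 with 10 TPM. In KYSE30 cells they were 22 with Fisher's exact test on tags, which compares libraries, and 35 with PACs listed in all 4 libraries. Genes changed 1.5-fold in level, 362 in KYSE30 and 377 in TE-1 cells, were 2050 and 2092 at 1.2-fold, 109 and 114 at 2-fold, 198 and 180 with a mean of at least 10 TPM, 875 and 846 with no filter, and 119 and 147 with a pseudocount of 5. The cause of these moves was not tested. Leaving out a library was not run, since each line and treatment had 1. The count models listed as alternatives were not run on the recovered tags. With a minimum of 10 TPM, ZC3H14 gave no distal usage in KYSE30 cells.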
